A study of Mus musculus with 32 samples.

Results

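The comparison described here set the midbrain (Mb) against the forebrain (Fb) in exencephalic embryos, whose cranial neural tube was still open at E9.5. It used 14 of the 32 RNA-seq libraries of the series. There were 4 Mb and 4 Fb libraries headed as triple knockouts, from embryos with null alleles of the type II cadherins Cdh6, Cdh8 and Cdh11. They are called TKO_Ex here. Another 3 Mb and 3 Fb libraries were headed as Cdh8 and Cdh11 double knockouts, which are labelled with exencephaly and called DKO_Ex here. All embryos were of the B6C3F1 background at E9.5. The 12 libraries of WT embryos (6 Mb, 6 Fb) and the 6 of DKO_CD embryos (3 Mb, 3 Fb), which the labels call Cdh6 and Cdh8 double knockouts with a cranial defect and the methods call Cdh8 and Cdh11 double knockouts with an elongated but closed midbrain, served as references. The question was whether expression that differs between the regions was kept when the tube failed to close.

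Several features limit these groups as a model. The mutant alleles were small CRISPR/Cas9 deletions at the exons with the start codons. All of them go back to 1 founder that had the deletions at all 3 loci, whose triple heterozygous descendants were intercrossed for the mutants, and WT embryos came from separate WT matings. The labels of the TKO libraries do not mention exencephaly, which is taken from the methods. For all 12 double knockout files, the group in the column heading is the opposite of the group of the GEO sample they were filed under, and the headings were followed here. Genotypes were called from the yolk sac. The labels do not say whether same-numbered Mb and Fb libraries came from the same embryo, so p-values here measure the spread between these libraries.

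As background, the early neural tube is divided along its length by transcription factors that are switched on in neighbouring territories. Otx2 marks the forebrain and midbrain, Six3, Rax and Lhx2 mark the anterior forebrain and eye field, and En1, En2 and Pax genes mark the midbrain and the isthmus, the organizer at the border of midbrain and hindbrain that secretes Fgf and Wnt ligands. Closure of the cranial folds takes place while these territories are already set up, and exencephaly follows when the folds fail to meet. Classic cadherins hold the neuroepithelial cells together, and type II cadherins are expressed in different combinations along the tube.

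The depth of the 14 libraries, estimated from the step between low values, was 2030000 to 3380000 fragments, and a gene at 1 FPKM therefore rests on few fragments. Each of the 3 DKO_Ex Mb libraries (3210000 to 3370000 fragments) was deeper than each of the 3 DKO_Ex Fb libraries (2420000 to 2890000), and the part of that gap in the results was not tested. A few libraries stood apart. The library labelled TKO_Ex Fb replicate 4 had the highest Fgf8 of the 7 Fb libraries (38.9 FPKM), and WT Mb replicate 5 had an En1 level of 3.56 FPKM against 32.0 to 59.0 FPKM in the other 5 WT Mb libraries. Values without these libraries are given where they bear on a result.

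The targeted cadherins were read first. In TKO_Ex, Cdh6 stood at 0.388, 0.353, 3.10 and 0.345 FPKM in Mb and at 1.84, 0.766, 3.74 and 0.572 FPKM in Fb, in the order of their replicate numbers. The libraries labelled TKO_Ex replicate 3 were thus within the WT range for Cdh6 in both tissues (1.04 to 3.55 FPKM in Mb, 2.04 to 4.0 FPKM in Fb), while the other 3 TKO_Ex Mb libraries were below every WT Mb library. In DKO_Ex, where Cdh6 was not targeted, it was at 1.86 to 3.12 FPKM in Mb and 3.62 to 4.34 FPKM in Fb. Cdh8 was, in the exencephalic mutants, at 0.851 to 2.49 FPKM in Mb and 0.423 to 3.15 FPKM in Fb. In WT it was at 1.14 to 10.1 FPKM in Mb and 0.840 to 1.96 FPKM in Fb. Cdh11 was at 14.5 to 18.7 FPKM in Mb and 17.1 to 21.4 FPKM in Fb, against 17.9 to 28.7 FPKM in WT Mb and 19.5 to 25.3 FPKM in WT Fb. Small deletions need not remove the mRNA, so the levels of Cdh6, Cdh8 and Cdh11 do not by themselves check the labels. The paper shows no reads over the deleted stretches in triple knockouts, which FPKM per gene cannot check. Since Cdh6 was lower in the other TKO_Ex libraries, its level leaves the genotype of those labelled TKO_Ex replicate 3 in doubt without settling it. The libraries labelled replicate 3 were kept under their label in each TKO_Ex result. Leaving out both lowered the number of genes past the threshold from 962 to 779 (462 higher in Mb and 317 in Fb).

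Midbrain and forebrain genes differed widely between Mb and Fb of the exencephalic mutants, with engrailed and Pax genes on the Mb side and Six3 and Lhx2 on the Fb side. Of 13427 genes tested with limma on log2(FPKM + 1) with genotype as a covariate, 962 differed between Mb and Fb at an adjusted p under 0.05 (7.16%). Higher in Mb were 564 (4.2%) and higher in Fb 398 (2.96%). Among the genes past the threshold the median size of the log2 difference was 0.87 for both directions (0.865 in Mb and 0.874 in Fb), and the difference was at least 1 for 222 genes higher in Mb and 166 higher in Fb. Larger differences were more frequent on the Fb side, with 24 genes at 3 or more against 8 on the Mb side. The 7 Mb libraries lay wholly above the 7 Fb libraries for 312 of the 564 genes and wholly below for 207 of the 398, beside 2.39% and 1.58% of all genes tested. With the TKO_Ex libraries alone, which do not depend on the conflict over the headings, 207 and 182 genes passed, and with the DKO_Ex libraries alone 221 and 123. Without both libraries labelled TKO_Ex replicate 4 the numbers were 480 and 325.

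En2, En1 and Cnpy1 had the largest differences on the Mb side. En2 and En1 encode the engrailed homeodomain factors of the midbrain and isthmus, and Cnpy1 encodes an endoplasmic reticulum protein linked to Fgf signalling at the isthmus. En2 ranged from 47.6 to 64.1 FPKM in the 7 Mb libraries with a median of 58.6, and from 0 to 0.375 FPKM in the 7 Fb libraries with a median of 0.0889. En1 had a lowest, median and highest level of 42.6, 49.0 and 65.5 FPKM in Mb and of 0, 0 and 2.09 FPKM in Fb. No library of the other tissue came near, and the highest Fb value of En1 was in DKO_Ex replicate 3. The log2 differences were 5.72 ± 0.10 (SE, limma adjusted p = 7.2e-14) for En2, 5.59 ± 0.12 (adjusted p = 3.8e-13) for Cnpy1 and 5.37 ± 0.23 (adjusted p = 1.8e-09) for En1.

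The other genes among the 10 largest on the Mb side were Trh, Hes3, Nkx6-2, Pax5, Sst, Msx3 and Irx2. Trh and Sst encode precursors of neuropeptides, thyrotropin-releasing hormone and somatostatin, and Hes3 a repressor of the Hes family known from the midbrain and isthmus. Trh was at 58.1 to 93.9 FPKM in Mb and 1.68 to 4.35 FPKM in Fb (log2 difference 4.39), Hes3 at 25.4 to 42.5 against 0.472 to 2.61 FPKM (4.13), and Pax5 at 19.2 to 30.8 against 0.174 to 1.69 FPKM (3.84). Sst was at 7.31 to 25.6 FPKM in Mb and listed at 0 in 6 of the 7 Fb libraries, the exception being TKO_Ex replicate 4 with 2.84 FPKM. For Msx3, a homeobox gene of the dorsal neural tube, the DKO_Ex Mb replicate 3 library had 0.488 FPKM, just above the highest Fb library at 0.449 FPKM, while the other 6 Mb libraries had 7.23 to 15.8 FPKM. With the DKO_Ex libraries alone Msx3 did not pass (adjusted p = 0.203).

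Aldh1a3, Six3, Lhx2, Dlk1, Six3os1, Fezf1, Pitx1 and Nkx2-1 were among the 10 largest differences on the Fb side. Aldh1a3 encodes an enzyme that makes retinoic acid in the eye field and olfactory region, Six3 encodes a factor that specifies the anterior forebrain, and Nkx2-1 marks the hypothalamus. Six3 ranged from 33.5 to 54.5 FPKM in Fb with a median of 47.5, and from 0 to 1.57 FPKM in Mb with a median of 0.189. Lhx2 ranged from 28.9 to 98.0 FPKM in Fb and from 0.178 to 7.56 FPKM in Mb. The groups of both genes lay wholly apart, as the choice of genes required. The log2 differences were -5.26 ± 0.34 for Aldh1a3 (limma adjusted p = 1.3e-07) and -5.16 ± 0.19 for Six3 (adjusted p = 5.5e-10). Dlk1, which encodes a secreted and membrane protein related to Notch ligands, had the highest level of the group, at 207 to 401 FPKM in Fb against 4.62 to 19.9 FPKM in Mb. Six3os1 is an antisense transcript beside Six3 and was also higher in Fb (-4.74). The reads came from directional libraries aligned with a strand setting.

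**Figure D1:**
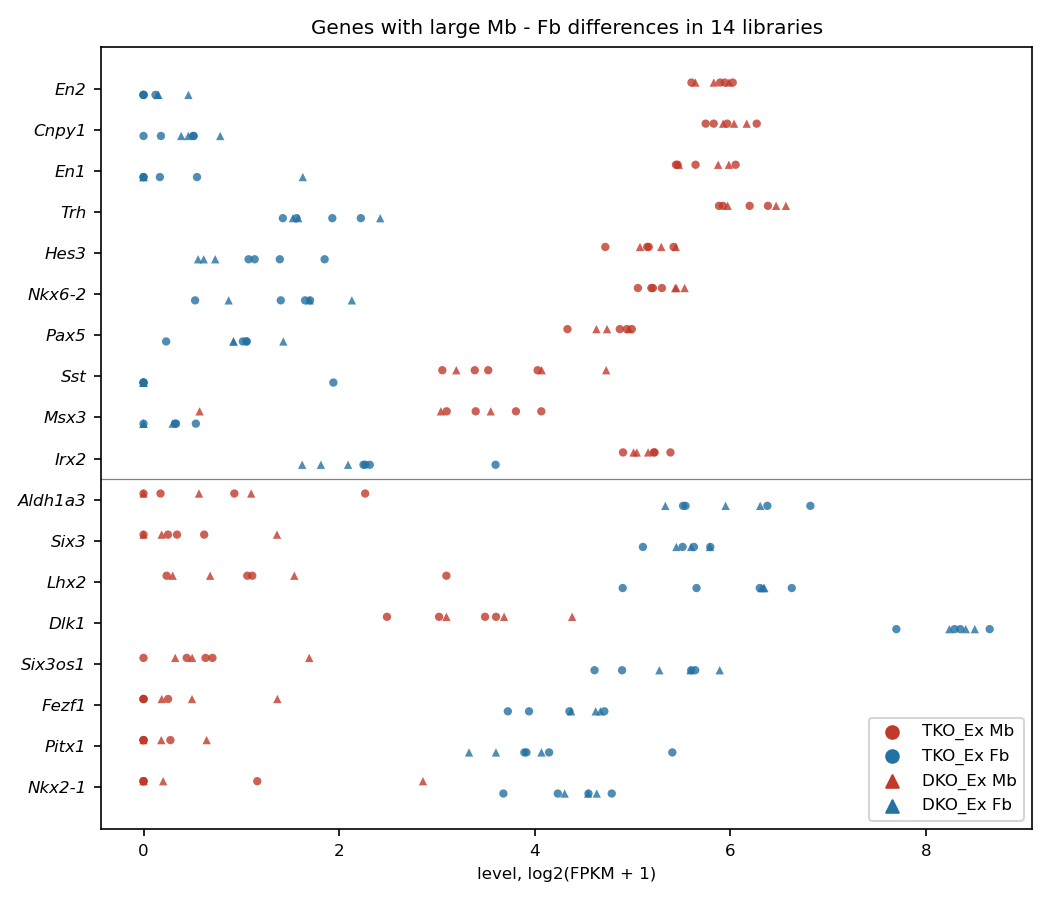
Level of genes among the 10 with the largest log2 difference on each side, as log2(FPKM + 1), in the 14 libraries of exencephalic mutants (circles, TKO_Ex; triangles, DKO_Ex; red, Mb; blue, Fb). For each gene the 7 Mb and the 7 Fb points do not overlap, which was a condition for choosing these genes. For Msx3 a DKO_Ex Mb point at 0.488 FPKM sits next to the Fb points.

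The sequences before the RefSeq starts of 4 of these regional genes (GRCm38.p6) are shown because their transcripts were near 0 in the opposite tissue and high in their own. En1 and Pax5 were higher in Mb, Six3 and Six6 in Fb. The windows hold the 250 bases upstream of each start, 5′ to 3′ on the gene's strand, at chr1:120602237-120602486 (plus strand) for En1, chr4:44710695-44710944 (minus strand) for Pax5, chr17:85620584-85620833 (plus strand) for Six3 and chr12:72939632-72939881 (plus strand) for Six6. Capitals would mark a match to a searched motif, and there was none in these 4 windows.
En1: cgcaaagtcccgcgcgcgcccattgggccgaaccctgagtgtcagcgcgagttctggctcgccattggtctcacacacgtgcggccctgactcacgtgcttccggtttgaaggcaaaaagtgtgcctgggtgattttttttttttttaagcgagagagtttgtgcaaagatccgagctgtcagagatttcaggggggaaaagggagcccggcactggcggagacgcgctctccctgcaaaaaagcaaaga
Pax5: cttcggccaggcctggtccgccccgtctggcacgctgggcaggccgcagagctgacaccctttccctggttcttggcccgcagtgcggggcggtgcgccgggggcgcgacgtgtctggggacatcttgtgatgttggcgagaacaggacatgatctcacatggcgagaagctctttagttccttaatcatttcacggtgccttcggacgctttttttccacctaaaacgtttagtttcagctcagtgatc
Six3: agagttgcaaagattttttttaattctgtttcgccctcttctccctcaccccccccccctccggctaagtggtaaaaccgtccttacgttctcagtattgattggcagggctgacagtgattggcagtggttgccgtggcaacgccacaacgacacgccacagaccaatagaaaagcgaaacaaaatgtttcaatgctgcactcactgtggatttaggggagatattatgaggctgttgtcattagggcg
Six6: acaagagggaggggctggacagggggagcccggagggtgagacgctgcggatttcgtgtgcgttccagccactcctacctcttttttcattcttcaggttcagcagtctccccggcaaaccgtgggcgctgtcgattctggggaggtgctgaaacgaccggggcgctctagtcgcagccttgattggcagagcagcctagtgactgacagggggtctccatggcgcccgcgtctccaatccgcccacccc

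The motifs searched, on both strands, were TAATTA (a core bound by many homeodomain proteins), TAATCC (bound by Otx-type homeodomains), GTAAACA (forkhead) and CTTTGAT (Tcf and Lef). TAATTA was in 2.5% of 560 windows of genes higher in Mb, in 3.66% of 383 windows of genes higher in Fb, in 2.27% of 11157 windows of tested genes that did not pass and in 4.84% of all 32851 windows of this length. In the same order CTTTGAT was in 2.5%, 2.35%, 2.13% and 3.21% of them. The shares of TAATCC were 4.46%, 5.48%, 4.88% and 6.25%, and those of GTAAACA 2.14%, 1.04%, 2.15% and 3.17%. The median GC content was 61.6% in the windows of both called groups and 60.0% in those of tested genes that did not pass. These shares are descriptions of letters in short windows.

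Midbrain and isthmus factors were mostly higher in Mb of the exencephalic mutants. Of 15 listed factors 14 were tested, 10 were higher in Mb, none was higher in Fb and 4 did not pass, and their median log2 difference was 1.38 beside 0.02 over all genes tested. The counts of this and the following lists stand beside 4.2% of all genes tested that were higher in Mb and 2.96% that were higher in Fb. With either genotype alone 7 of the 14 passed, and without both libraries labelled TKO_Ex replicate 4 it was 9, Pou4f1 being the one lost (adjusted p = 0.073). The same 10 names passed in WT, with a median of 1.82. Besides En1, En2 and Pax5 they were Pax8 and Gbx2, which act at the isthmus and anterior hindbrain, Pax3, Pax7 and Lmx1b, which mark dorsal tube and isthmus, Dmbx1, a homeobox gene of the dorsal midbrain, and Pou4f1, which marks early sensory and tectal neurons. Dmbx1 was at 18.3 to 40.3 FPKM in Mb and at 2.64 to 12.8 FPKM in Fb (log2 difference 2.09 ± 0.27). Gbx2 was at 4.34 to 11.2 FPKM in Mb and at 0 to 1.49 FPKM in Fb (2.39 ± 0.22). Pax7 was smaller, at 3.31 to 6.90 against 1.65 to 3.45 FPKM (0.66 ± 0.14), and its groups overlapped.

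Pax2, Lmx1a, Sall4 and Meis2 were the 4 members that did not pass. Pax2, an early isthmus gene, was at 2.22 to 5.39 FPKM in Mb and 1.59 to 6.05 FPKM in Fb, with a log2 difference of -0.01 and overlapping groups. Pax8 passed with a log2 difference of 2.80 although DKO_Ex Fb replicate 3 had 5.6 FPKM, since the other Fb libraries had at most 1.01 FPKM and the Mb libraries 8.91 to 14.4 FPKM. With the DKO_Ex libraries alone neither Pax8 (adjusted p = 0.124) nor Pax7 (adjusted p = 0.384) passed in limma. Markers of the next territory, the hindbrain, were near 0. The summed level of 11 hindbrain markers was 0.943 to 4.04 FPKM in Mb and 0.618 to 1.74 FPKM in Fb, 5 of them (Hoxb1, Hoxa3, Hoxb3, Hoxd3 and Hoxa4) were listed at 0 in all 7 Mb libraries, and the 1 that was tested did not pass.

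Forebrain and eye field factors were mostly higher in Fb. Of 32 listed factors 28 were tested, 20 were higher in Fb, 1 was higher in Mb and 7 did not pass, with a median log2 difference of -1.94. Emx2, a gene of the dorsal telencephalon, was at 9.87 to 31.1 FPKM in Fb and 0.346 to 2.59 FPKM in Mb. Eye field genes were Six3, Six6, Rax and Lhx2. Six6 was at 9.02 to 14.6 FPKM in Fb and was listed at 0 throughout the 7 Mb libraries, as was Vax1, which patterns the optic stalk and ventral forebrain. Rax was at 5.5 to 18.8 FPKM in Fb and at most 0.329 FPKM in Mb. Hypothalamic Nkx2-1 was at 11.8 to 26.6 FPKM in Fb and listed at 0 in 4 Mb libraries, but was at 6.25 FPKM in DKO_Ex Mb replicate 2. The same library also had the highest Mb level of Six3 (1.57 FPKM).

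Broader forebrain genes gave smaller differences. Pax6 was at 47.1 to 70.1 FPKM in Fb and 5.15 to 30.6 FPKM in Mb (-2.01 ± 0.30), and Hesx1 at 1.2 to 7.32 against 0 to 1.42 FPKM (-1.85 ± 0.30). Mab21l2, a gene of the eye and the tectum, was the member higher in Mb (1.46). Otx2, which marks both regions, was at 59.8 to 158 FPKM in Mb and 64.9 to 114 FPKM in Fb, with a log2 difference of 0.05 and groups that overlapped. Otx1 (-0.15), Nr2f1 (0.12) and Sp8 (0.20) did not pass either. Without both libraries labelled TKO_Ex replicate 4 the forebrain list again had 20 and 1, and with the TKO_Ex libraries alone 18 and 1.

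Among the Fgf ligands, those of the isthmus were split. Fgf8, the main organizer signal, was at 12.6 to 30.5 FPKM in Mb and at 9.60 to 38.9 FPKM in Fb, and did not pass (log2 difference -0.17, limma adjusted p = 0.82). Fgf17 was at 11.2 to 24.4 FPKM in Mb and 5.12 to 13.8 FPKM in Fb (1.08 ± 0.20, adjusted p = 0.0031). Fgf15, a ligand of midbrain and diencephalon, was at 39.6 to 73.5 FPKM in Mb and 12.7 to 28.0 FPKM in Fb (1.31 ± 0.17). The Mb libraries were all above the Fb libraries for Fgf15 and Fgf18 (1.90), and overlapped for Fgf17, where the lowest Mb value was that of DKO_Ex replicate 3. Fgf9 (-1.20) and Fgf10 (-1.41) were higher in Fb, and Fgf3 and Fgf13 did not pass.

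Of 14 feedback genes and receptors of Fgf signalling, 5 were higher in Mb, none was higher in Fb and 9 did not pass, with a median log2 difference of 0.34. The 5 were the feedback inhibitors Spry1 (0.70), Spry2 (0.95), Il17rd (0.86) and Spred1 (0.60) and the target factor Etv4 (0.76). Spry1 was at 16 to 30.4 FPKM in Mb and 10.8 to 17 FPKM in Fb, and its groups overlapped in a narrow range. Dusp6 (-0.10), Etv5 (0.31) and Spry4 (0.06) did not pass. With the TKO_Ex libraries alone 3 genes of the list passed (Spry1, Spry2 and Il17rd). With the DKO_Ex libraries alone only Fgfr2 passed, which is not among the 5. None of the 5 passed in WT, where 3 other genes of the list did (Spred2, Fgfr2 and Fgfr3). In WT, Fgf8 and Fgf17 were listed at 0 in Mb replicate 5, and Spry1 was at 2.51 FPKM there against 13.1 to 24.6 FPKM in the other 5 WT Mb libraries. Without that library the WT differences were 0.36 for Spry1, 0.34 for Spry2, 0.44 for Il17rd, 0.48 for Spred1 and 0.72 for Etv4, and 2 genes of the list passed in WT.

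The tissue difference of Fgf17 was 1.76 larger on the log2 scale in the exencephalic mutants than in WT (95% interval 0.43 to 3.09, unadjusted p = 0.011 in limma), which did not pass the correction over all genes. WT Mb spread from 0 to 20.3 FPKM for this gene. Without WT Mb replicate 5 the same estimate was 1.22 (unadjusted p = 0.0097), and with DKO libraries grouped by the records in place of the headings the Fgf17 difference in exencephalic mutants was 0.64 (adjusted p = 0.521). With the DKO_Ex libraries alone it was 0.77 (adjusted p = 0.383). For Fgf15 the estimate was 0.50 (0.01 to 0.995) and for Fgf8 0.40 (-1.09 to 1.88), which turned to -0.25 without WT Mb replicate 5.

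**Figure D2:**
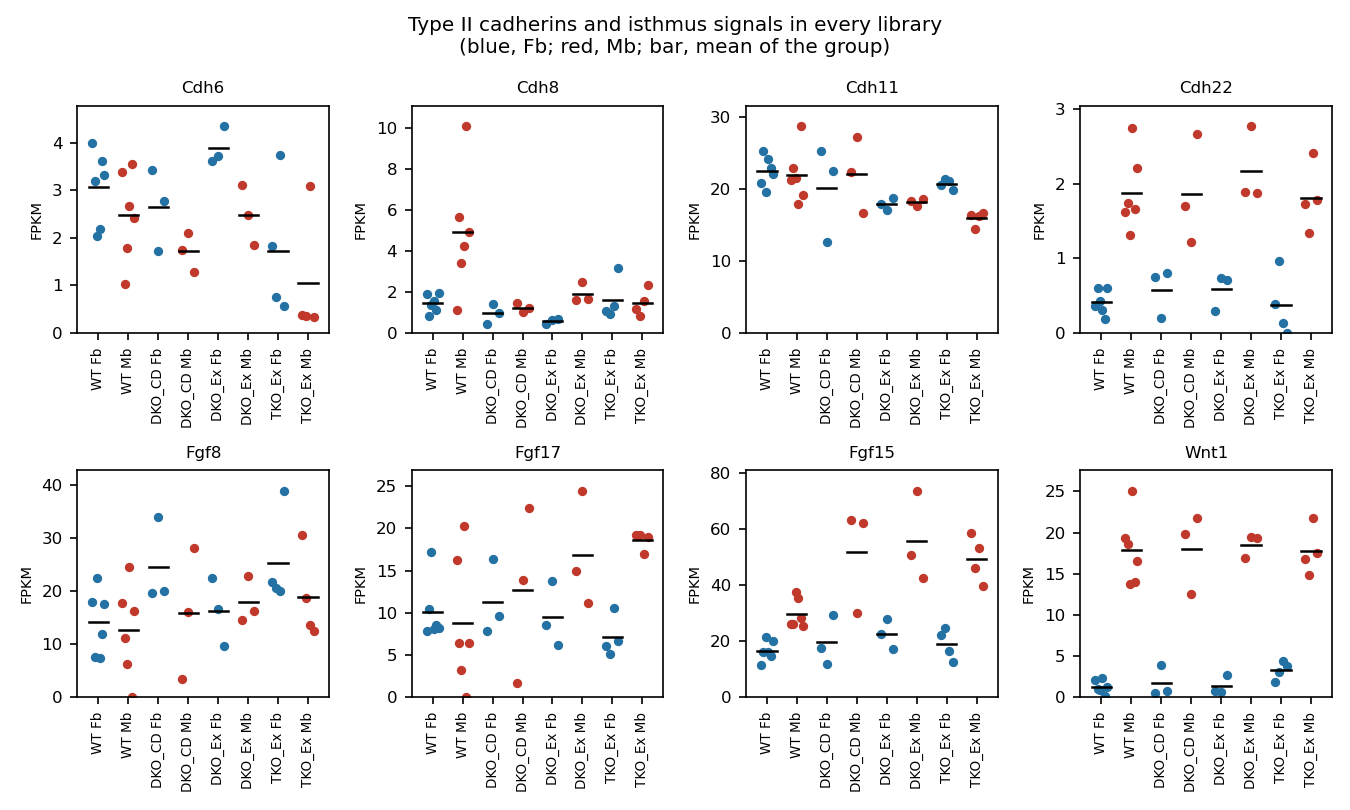
FPKM of 4 type II cadherins and 4 isthmus signals in every library of the 8 groups (blue, Fb; red, Mb; bar, mean). Fgf15 and Wnt1 are higher in Mb than in Fb in each group, Fgf17 is at 11.2 to 24.4 FPKM in the exencephalic Mb libraries, and Cdh6 in the TKO_Ex groups has a single high library in each tissue, labelled replicate 3.

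Wnt ligands divided by region. Wnt1, the isthmus and dorsal midline ligand, was at 14.9 to 21.8 FPKM in Mb and 0.695 to 4.42 FPKM in Fb, with no overlap (2.56 ± 0.22, limma adjusted p = 3.1e-06). Wnt3a (1.55) and Wnt3 (0.83), which are also dorsal ligands, were higher in Mb. Wnt7b (-2.97), Wnt8b (-3.25) and Wnt5b (-0.59) were higher in Fb. Wnt8b, a gene of the dorsal forebrain, was at 11.3 to 24.1 FPKM in Fb and 0.379 to 2.27 FPKM in Mb. The other 6 ligands tested did not pass, among them Wnt4 (0.43), Wnt5a (0.53) and Wnt9a (0.53), which were higher in Mb in WT.

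Among 23 tested targets and modulators of Wnt signalling, 10 were higher in Mb, 5 were higher in Fb and 8 did not pass (median 0.50). Several feedback targets of the canonical pathway were higher in Mb. Axin2 was at 33.4 to 48.3 FPKM in Mb and 18.4 to 27.9 FPKM in Fb (0.70 ± 0.11), Nkd1 at 44.0 to 60.4 against 8.05 to 19.4 FPKM (1.81 ± 0.14), and the secreted inhibitor Notum at 1.86 to 6.20 against 0 to 0.586 FPKM (1.93 ± 0.17). Their groups did not overlap. Sp5 (1.35), Apcdd1 (1.66), Tcf7 (0.60), Znrf3 (0.50) and Sfrp2 (0.69) were higher in Mb too, and Lef1 (0.29), Nkd2 (-0.34) and Dkk1 (-0.65) did not pass. Cnpy1, described above as linked to Fgf signalling, was a member of this list and is counted among the 10. Among receptors, Fzd10 was higher in Mb (2.34), Fzd5 (-2.49) and Fzd8 (-1.64) were higher in Fb. The agonists Rspo2 (-1.39) and Rspo3 (-1.44) and the modulator Dkk3 (-0.57) were higher in Fb.

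Ventral factors were higher in Mb, whereas Shh and its direct targets did not pass. Shh itself was at 7.60 to 25.4 FPKM in Mb and 7.76 to 16.5 FPKM in Fb (0.13, not passed), and its targets Ptch1 (0.07) and Gli1 (0.29) did not pass. The floor plate factors Foxa2 (0.91) and Foxa1 (1.07) and the ventral homeobox genes Nkx6-1 (2.43), Nkx6-2 (3.88) and Nkx2-9 (1.02) were higher in Mb, as was Ferd3l (1.96), a gene of the floor plate. Nkx6-2 was at 32.3 to 45.3 FPKM in Mb and 0.441 to 3.38 FPKM in Fb. Of 14 genes tested in this list, 6 were higher in Mb, 1 in Fb and 7 did not pass, with a median of 0.21.

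Dorsal and roof plate genes were mixed. Of 22 tested, 8 were higher in Mb, 3 in Fb and 11 did not pass (median 0.34). Gdf7, the roof plate ligand, was at 1.44 to 4.06 FPKM in Mb and 0 to 1.995 FPKM in Fb (1.05 ± 0.26). Msx1 (0.71), Zic2 (0.78), Zic5 (0.72), Id1 (0.68), Id2 (0.88) and the Bmp and activin binder Fst (0.68) were higher in Mb, as was Msx3. Bmp4 was at 1.80 to 4.33 FPKM in Mb and 5.59 to 13.2 FPKM in Fb (-0.995 ± 0.18) and Bmp7 at 4.07 to 8.75 against 9.26 to 14.8 FPKM (-1.04 ± 0.15), so these ligands were on the Fb side with no overlap. The ligands Bmp2 (-0.64), Bmp5 (-0.15) and Bmp6 (0.80) did not pass. With the TKO_Ex libraries alone 3 and 2 genes of this list passed in place of 8 and 3, without Bmp4 (limma adjusted p = 0.0595). With the DKO_Ex libraries alone only Id2 and Msx1 passed, both higher in Mb, so neither Bmp4 nor Bmp7 did. In the retinoic acid list 2 genes were higher in Fb, Aldh1a3 among them, and the other 6 genes tested did not pass.

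Iroquois genes, homeobox genes expressed behind the anterior forebrain, formed a uniform group. All 5 tested members were higher in Mb, with log2 differences of 2.22 (Irx1), 2.86 (Irx2), 2.0 (Irx3), 1.37 (Irx4) and 2.18 (Irx5). Irx3 was at 55.6 to 77.0 FPKM in Mb and 8.98 to 27.6 FPKM in Fb. The highest Fb level of Irx1 (22.1 FPKM) and of Irx2 (11.1 FPKM) was in TKO_Ex replicate 4, and even these were under the lowest Mb levels (34.4 and 28.9 FPKM).

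Genes that mark the onset of neurogenesis were almost all higher in Mb. Of 18 tested proneural and early neuronal genes, 16 were higher in Mb, 1 was higher in Fb and 1, Isl1, did not pass, with a median of 1.81 against 2.0 in WT, where the same 16 names passed. Neurog1, a proneural factor, was at 13 to 28.2 FPKM in Mb and 0.248 to 13.4 FPKM in Fb (2.22 ± 0.35). The highest Fb level of Neurog1, above the lowest Mb level, was again in TKO_Ex replicate 4. The Notch ligand Dll3 (2.27) and the target Hes5 (1.66) were higher in Mb, as were Elavl4 (1.90), an RNA-binding protein of neurons, and Stmn2 (2.08), a tubulin regulator. Hes1, the Notch target of undifferentiated progenitors, was at 51.9 to 59.6 FPKM in Fb and 22.2 to 34.6 FPKM in Mb (-0.91 ± 0.09). With the TKO_Ex libraries alone 9 and 1 of these genes passed, and without both libraries labelled TKO_Ex replicate 4 it was 14 and 1 of 17 tested.

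Most cell cycle genes did not pass. Of 20 tested, 3 were higher in Mb, none in Fb and 17 did not pass (median 0.05). Ccnd1 was at 133 to 162 FPKM in Mb and 80.8 to 112 FPKM in Fb (0.57 ± 0.07), Ccnd2 followed at 0.50, and both differed in WT too. Mki67 passed with a small difference of 0.17 ± 0.05 (46.6 to 51.6 against 40.3 to 46.1 FPKM, limma adjusted p = 0.046). It did not pass without both libraries labelled TKO_Ex replicate 4 (adjusted p = 0.137) or with the TKO_Ex libraries alone (adjusted p = 0.394), and with the DKO_Ex libraries alone no gene of the list passed.

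**Figure D3:**
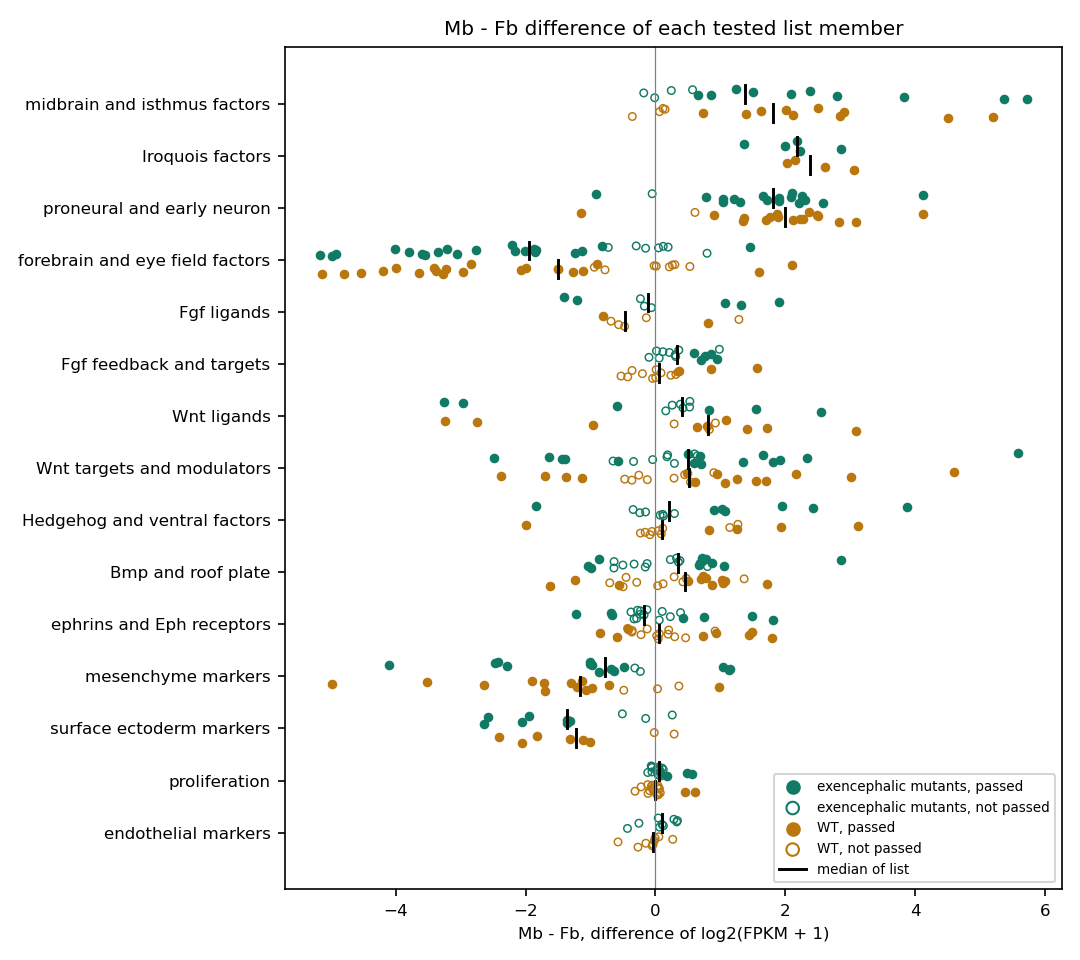
Log2 difference between Mb and Fb for each tested member of 15 gene lists in exencephalic mutants (green) and in WT (orange). Filled points passed the threshold, open points did not, and black ticks are the medians of the lists, which in the exencephalic mutants run from 2.18 (Iroquois factors) to -1.94 (forebrain and eye field factors).

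Among the cadherins themselves only Cdh22 differed between the regions at the threshold, in 7 tested type II genes. Cdh22 was at 1.34 to 2.77 FPKM in Mb and 0 to 0.959 FPKM in Fb (1.04 ± 0.18, limma adjusted p = 0.0017), and its difference was 1.01 in WT. With either genotype alone no type II gene passed. Cdh8 had a log2 difference of 0.36 in the exencephalic mutants (not passed) and of 1.13 in WT (adjusted p = 0.039), where WT Mb replicate 5 had the highest level, 10.1 FPKM. The difference between these estimates was -0.77 (95% interval -1.55 to 0.01). Without that library the WT difference of Cdh8 was 0.92 and the difference between the estimates -0.56 (unadjusted p = 0.113), and 1 type II gene was higher in Mb in WT in place of 2. Cdh20 did not pass in the mutants (-0.39) and was higher in Fb in WT (-0.69). Of the type I genes, Cdh1 (-1.46) and Cdh3 (-1.27), epithelial cadherins, were higher in Fb. Cdh2, the N-cadherin of the neuroepithelium, was at 58.8 to 69.3 FPKM in Mb and 50.6 to 73.5 FPKM in Fb, with a log2 difference of -0.01.

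Ephrins and Eph receptors are cell contact signals that keep territories apart, and 7 of the 19 tested differed between the regions. Efna2 was at 82.7 to 119 FPKM in Mb and 19.9 to 32.3 FPKM in Fb (1.81 ± 0.11), Efnb3 at 59.8 to 67.5 against 19.1 to 28.9 FPKM (1.48 ± 0.09), and Efnb1 at 35.9 to 41.8 against 17.1 to 25.9 FPKM (0.75 ± 0.08). None of these overlapped, and Efna5 (0.43) was higher in Mb as well. The receptors Epha4 (-1.23), Epha7 (-0.69) and Epha1 (-0.67) were higher in Fb. The other 12 of 19 tested did not pass, including Epha8 (0.39), which was higher in Mb in WT (1.48). The ligands Efna3 (-0.33) and Efna4 (-0.29) were among them.

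Markers of tissues around the neural tube also moved with region. Of 16 tested mesenchyme markers, 11 were higher in Fb, 3 in Mb and 2 did not pass (median -0.78, in WT -1.17). Without both libraries labelled TKO_Ex replicate 4 it was 10 and 3, and with the TKO_Ex libraries alone 7 and 2. The head mesenchyme genes Alx1 (-2.29) and Six2 (-2.48) were higher in Fb. Col1a1 (1.15), Col3a1 (1.03) and Twist2 (1.14) were higher in Mb, and Col3a1 and Twist2 did not pass in WT. The summed level of the list was 268 to 348 FPKM in the 7 Fb libraries and 185 to 256 FPKM in the 7 Mb libraries, against 349 to 380 FPKM in WT Fb and 137 to 256 FPKM in WT Mb. Surface ectoderm markers were higher in Fb for 7 of 10 tested genes (median -1.36), including Epcam (-2.64), Cldn6 (-2.59) and Krt18 (-2.05). Their summed level was 128 to 337 FPKM in Fb and 33.8 to 60.5 FPKM in Mb.

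Of 6 tested neural crest markers, Tfap2a (-1.34) and Erbb3 (-1.34) were higher in Fb. None of 9 endothelial and none of 9 red cell markers passed. In the red cell list all 9 log2 differences were above 0 with a median of 0.57, and its summed level overlapped between Mb (7077 to 21662 FPKM) and Fb (4173 to 16466 FPKM). Since these were dissected tissues, fewer cells of a type and less RNA per cell cannot be told apart, and the part that adjoining mesenchyme and ectoderm had in the Fb-higher genes was not tested.

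**Figure D4:**
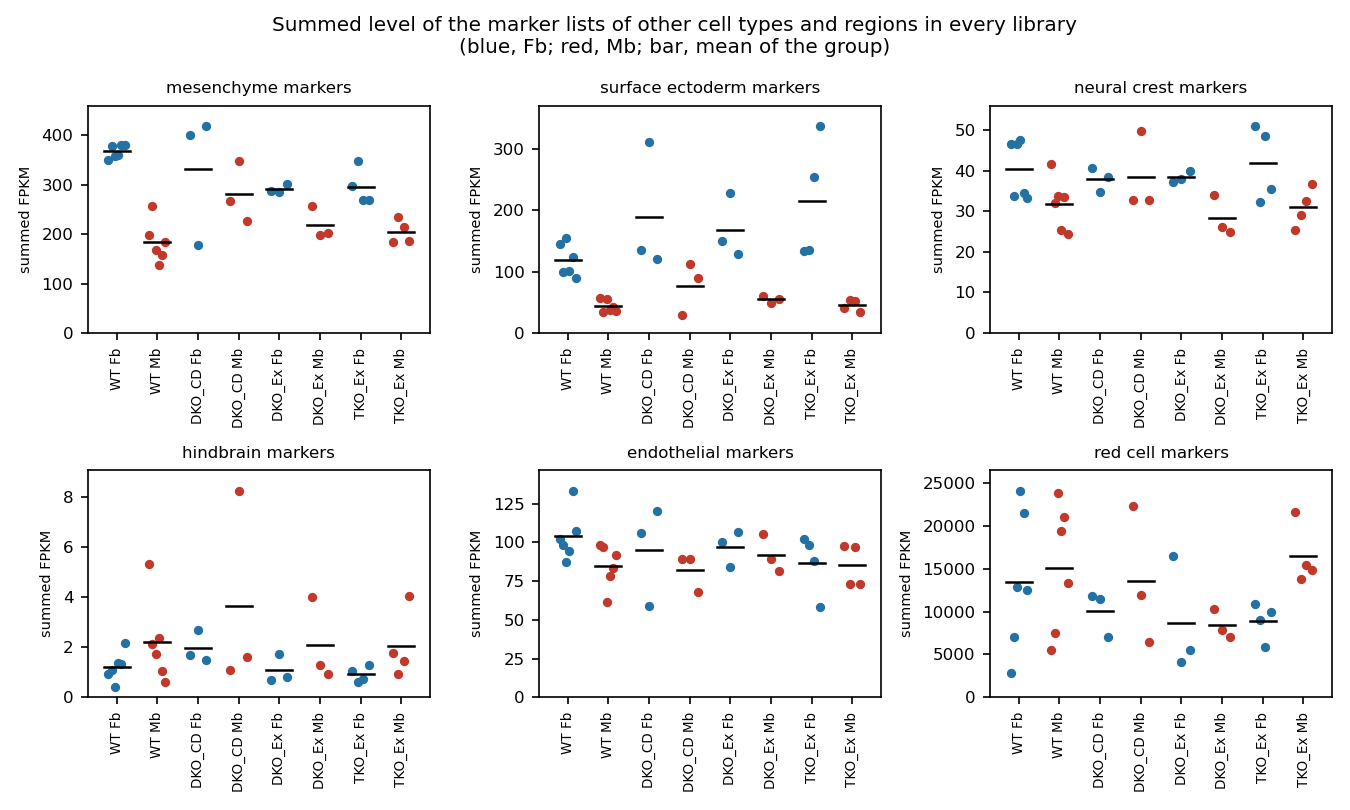
Summed FPKM of 6 marker lists of other tissues and territories in every library of the 8 groups (blue, Fb; red, Mb; bar, mean). In the exencephalic mutants the mesenchyme and surface ectoderm sums are higher in each Fb library than in each Mb library, and the endothelial and red cell sums overlap.

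WT libraries gave a set of regional genes that the exencephalic libraries had no part in choosing. Of 13344 genes tested in WT, 1102 differed between Mb and Fb (8.26%), 4.66% of all genes upward in Mb and 3.6% upward in Fb. In the exencephalic mutants 1083 of them were tested, 1038 had the same direction (95.8%), 629 passed in the same direction (58.1%) and none passed in the opposite direction. Of 608 genes higher in Mb in WT, 389 passed (64.0%, beside 4.2% of all genes tested), and of 475 higher in Fb, 240 passed (50.5%, beside 2.96%). Without WT Mb replicate 5 the WT libraries chose 921 genes, and 598 of 906 tested passed (66.0%). Without WT Mb replicate 1 they chose 1317 genes, of which 48.5% of those tested passed. Over all single libraries left out the share was 48.5% to 66.4%, and with the DKO libraries grouped by the records it was 50.7%. With the TKO_Ex libraries alone 310 of 1079 passed and 1001 had the same direction, with the DKO_Ex libraries alone 290 of 1076 and 1028. None passed in the opposite direction in either. Across the 1083 genes the differences in WT and in the exencephalic mutants had a Pearson r of 0.922, which is a description across genes that share libraries.

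The DKO_CD libraries gave a smaller second set, chosen from 3 against 3 libraries, of 68 genes out of 13415 (0.507%, of which 0.224% higher in Mb and 0.283% higher in Fb). That set rests on the headings, since grouping by the records gave 344 genes, and leaving out 1 library gave 26 to 77. Of the 68 genes, 62 passed in the exencephalic mutants in the same direction and 60 in WT. Over all genes tested, 7.16% passed in the exencephalic mutants and 8.26% in WT, in either direction. Gm12013, a processed pseudogene, passed in the opposite direction in WT. For the 30 genes higher in Mb the median log2 difference was 1.52 in WT and 1.59 in the exencephalic mutants, and for the 38 higher in Fb its size was 2.69 and 2.78.

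**Figure D5:**
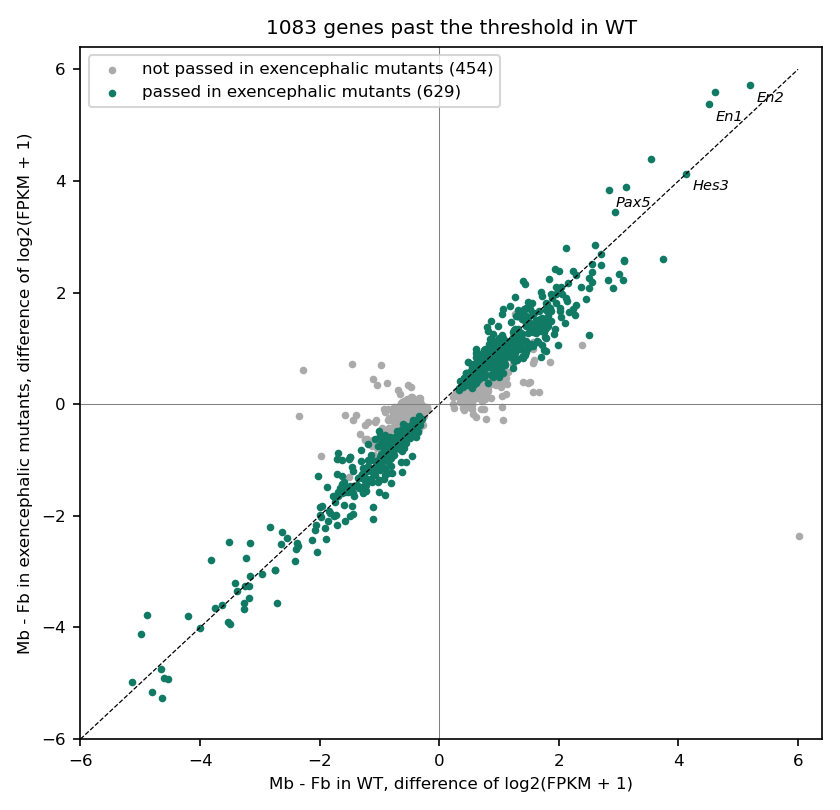
Log2 difference between Mb and Fb in WT (x axis) and in exencephalic mutants (y axis) for the 1083 genes past the threshold in WT. Green points (629) passed in the exencephalic mutants, grey points (454) did not, and the dashed line marks equal differences. The point at the lower right is the processed pseudogene Gm12013, which was chosen after its values were seen.

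Whether the tissue difference itself differed from WT was tested as an interaction. None of 13414 genes passed in limma, with 647 at an unadjusted p under 0.05. The median standard error of this contrast was 0.22 on the log2 scale, so estimates of that size lay within the error. En1 (0.86, 95% interval -0.37 to 2.09), Six3 (-0.36, -0.95 to 0.24) and Wnt1 (-0.53, -1.18 to 0.11) had intervals that included 0. Without WT Mb replicate 5 the estimate of En1 was 0.30 and that of Six3 -0.21. Of the 454 genes that passed in WT but not in the mutants, 121 had an unadjusted interaction p under 0.05 in limma. Of the 307 that passed in the mutants but not in WT it was 54, with 0 after adjustment in either set. Over all genes tested it was 647 of 13414. Both sets were chosen by these same libraries for passing in a single fit, which favours small interaction p-values, so their counts are no separate evidence. The loss or gain of a call in these genes is therefore not shown to be a difference between WT and the mutants.

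The smallest p-values of that contrast belonged to Hsdl1, Snrpa1, Gm17538, Islr and Col1a2. Col1a2, a fibrillar collagen of mesenchyme, was at 13 to 18.4 FPKM in exencephalic Fb and 23.1 to 39.2 FPKM in WT Fb, without overlap, while Mb libraries overlapped at 10.5 to 15.2 and 8.32 to 15.1 FPKM. Its tissue difference was -0.32 in the mutants and -1.20 in WT (difference 0.88, 0.49 to 1.28, limma adjusted p = 0.255). Prrx1, Twist1 and Alx4, also mesenchyme genes, had estimates of 0.84, 0.45 and 0.73 with intervals above 0, unadjusted. They and Col1a2 belong to the mesenchyme list summed above, so that sum is not separate from them. The part of tissue content in these differences was not tested. Hsdl1, a dehydrogenase-like gene, had -0.26 in the mutants and 0.79 in WT (difference -1.05, -1.43 to -0.66, adjusted p = 0.106). It passed when WT Mb replicate 1 (adjusted p = 0.0289) or DKO_Ex Fb replicate 1 (adjusted p = 0.0028) was left out. Snrpa1, a spliceosome protein gene, differed by 0.45 (0.27 to 0.64, adjusted p = 0.173).

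Several other regional genes had an unadjusted interval wholly on either side of 0, and none of them passed the correction. In limma 647 of 13414 genes had an unadjusted p under 0.05, a mark that chance reaches in about 1 in 20. The genes named next are examples, and Trh, Pax3, Axin2, Bmp4 and Bmp7 were among others with such intervals. Dmbx1 (-0.81, -1.55 to -0.08), Pou4f1 (-1.26, -2.29 to -0.24), Irx1 (-0.84, -1.43 to -0.26), Fzd10 (-0.68, -1.09 to -0.27) and Epha8 (-1.09, -1.77 to -0.42) had estimates below 0. Pax5 (0.99, 0.16 to 1.82), Notum (0.67, 0.11 to 1.22) and Twist2 (1.11, 0.32 to 1.89) had estimates above 0. Pax5 was at 3.90 FPKM in WT Mb replicate 5, the lowest of WT Mb, and without that library the difference for Pax5 was 0.64 (unadjusted p = 0.022).

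The tissue differences of both exencephalic genotypes were then set against each other and against DKO_CD. Of 13427 genes 2 passed the interaction of TKO_Ex against DKO_Ex (0.0149%, or 0.00745% in each direction, with 743 at an unadjusted p under 0.05). Gm17538 stood at 5.80 to 11.4 FPKM in each TKO_Ex Mb library and at 0 in the other 10 libraries, and Gm20302 at 7.02 to 8.70 FPKM in each DKO_Ex Mb library and at 0 in the other 11. They are processed pseudogenes on chromosomes 17 (77674376 to 77674700) and 1 (105574537 to 105574811), whose reads could belong to near-identical copies, and neither passed with a pseudocount of 0.1, with a filter of at least 1 FPKM in at least 7 libraries, with the replicate number as a block or with the DKO libraries grouped by the records. Across 1068 genes called in WT, the TKO_Ex and DKO_Ex differences had a Pearson r of 0.939. Against DKO_CD none of 13452 genes passed (456 at an unadjusted p under 0.05).

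The genes past the threshold were mostly protein coding, 91.5% of those higher in Mb and 93.0% of those higher in Fb, against 86.0% of tested genes that did not pass. Of 13358 pairs of tested genes that follow each other on a chromosome, both members passed in 154 pairs (1.15%), 74 of them both higher in Mb, 49 both higher in Fb and 31 in opposite directions. Six3os1, Gm27801 and Six3 followed each other on chromosome 17 and were higher in Fb.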

How the data were processed

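Forebrain and midbrain of mouse embryos at E9.5 were dissected and sequenced from strand-specific libraries (NEBNext Ultra Directional). The authors aligned the reads with TopHat2 to GRCm38 (mm10), per the labels and methods, without stated versions. The deposited values are FPKM per gene (fragments scaled by gene length and by library size), computed by the authors with Cufflinks. HTSeq counts and DESeq2 tests by the authors were not used. FPKM values are relative within a library and keep no direct depth. Depth is therefore an estimate. It uses the spacing of the lowest FPKM of 771 genes that have 1 annotated transcript and a length of 4000 bp or more.

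Values of 65 repeated identifiers were summed, and 48218 of 48576 identifiers were matched to GENCODE M21. Values were transformed as log2(FPKM + 1), and genes averaging 1 FPKM or more among the libraries compared were tested. Models were fitted by limma (3.58.1, under R 4.3.3), whose variance prior followed the mean level. Fold changes on this scale understate those of low genes. The exencephalic comparison had genotype as a covariate, and interaction contrasts compared the tissue difference between genotypes. P-values were adjusted by Benjamini-Hochberg over all genes tested, with a threshold of 0.05, and differences are given as Mb minus Fb. The script was tested on simulated data. Lists are described by counts and medians. The 10 largest differences on each side among genes past the threshold were named, beside regional and signalling genes listed by hand, the genes with the smallest p in each interaction, and some list members. Some of these genes are not reported here. Members and lists were chosen with earlier results of these data known. Upstream sequences came from RefSeq (GRCm38.p6), and En2 and Hes3 are not shown. Alternatives were other pseudocounts, filters and scaling, no trend, the replicate block, grouping by records, each genotype alone and leaving out libraries. Figures were drawn with matplotlib 3.10.9.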

Additional observations from a re-analysis of the deposited data

Results flagged for a closer look

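In groups of 4 libraries, a library whose gap to its nearest neighbour took up most of the range of its group was picked out by Dixon's test at 95%. This gave 12 of 70 group and gene combinations, where chance gives about 1 in 20, and many of them are low values beside a group at 0. TKO_Ex Fb replicate 4 accounted for 5 of them. It was the highest of its group for Sst (2.84 FPKM, the others at 0), Irx2 (11.1 FPKM, next 3.97), Pitx1 (41.4 FPKM, next 16.7) and Fgf8 (38.9 FPKM, next 21.7), and the lowest for Pax5 (0.174 FPKM, next 1.02). TKO_Ex Mb replicate 3 was set apart by Cdh6 (3.10 FPKM, next 0.388) and by Fgf17 (17 FPKM, next 19.0). TKO_Ex Mb replicate 2 had Lhx2 at 7.56 FPKM (next 1.16). The rest were near 0. They were Nkx2-1 at 1.24 FPKM and Fezf1 at 0.190 FPKM in TKO_Ex Mb replicate 4, Pitx1 at 0.210 FPKM in TKO_Ex Mb replicate 1, and En2 at 0.0889 FPKM in TKO_Ex Fb replicate 1.

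The tissue difference of 2 genes differed between the exencephalic genotypes by the interaction test in limma. TKO_Ex minus DKO_Ex was -3.10 on the log2 scale for Gm20302 and 3.10 for Gm17538. Neither passed with a pseudocount of 0.1, the stricter filter, the replicate block or grouping by the records. Both are processed pseudogenes with few fragments, and both were also detected in single libraries of WT.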

How the results depend on the processing

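For the exencephalic mutants the 962 genes past the threshold (564 higher in Mb, 398 in Fb) became 389 (207 and 182) with TKO_Ex alone, 344 (221 and 123) with DKO_Ex alone and 388 (222 and 166) when a log2 difference of at least 1 was also asked for. They were 848 by the records, 997 after median-of-ratios scaling and 820 to 948 without single libraries. Same-numbered Mb and Fb libraries were not treated as pairs, since the correlation of their deviations was not over 0.1 in every pair (0.00884 to 0.113 in TKO_Ex, 0.0746 to 0.117 in DKO_Ex). As a hint from the data, 3 of 4 and 3 of 3 Mb libraries were closest to their own number. With the replicate block 885 genes passed, the 68 genes of DKO_CD became 40 (14 higher in Mb), and none of the 2 genes of TKO_Ex against DKO_Ex passed.

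For DKO_CD (30 and 38), grouping by the records gave 344 (221 and 123), no filter gave 14 genes higher in Mb, and leaving out a library gave 26 to 77 (7 to 32 and 19 to 45). The 2 genes of TKO_Ex against DKO_Ex (1 in each direction) became 0 by the records, with a pseudocount of 0.1 and with at least 1 FPKM in 7 libraries. With no filter 2 were below 0, and without TKO_Ex replicate 3 or 4 in both tissues 2 were above 0. Leaving out a library gave 1 to 2 in each direction. Against DKO_CD, the count of 0 became 1 by the records (below 0), 1 with a pseudocount of 5 and 1 without the trend (both above 0), 2 with no filter (above 0) and 2 without TKO_Ex replicate 4 (1 and 1), and 0 to 1 without single libraries. Against WT, the count of 0 became 0 to 2 without single libraries, at most 1 in each direction. Without WT Fb replicate 4 it was Gm17538, without WT Mb replicate 1 Polr2i and Hsdl1, and without DKO_Ex Fb replicate 1 Hsdl1.

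Of 2175 alternative values of 72 single-gene results, 2109 kept direction and side of the threshold, 14 fell short of it, 8 came to pass it and 44 changed sign. Sign changes lay mostly near 0. In the exencephalic mutants they were Pax2 (0.0038 with a pseudocount of 0.1, 0.0172 with DKO_Ex alone, -0.138 to 0.114 without single libraries), Otx2 (-0.30 by the records, -0.20 with TKO_Ex alone, -0.0734 to 0.159 without single libraries), Cdh2 (0.0299 with DKO_Ex alone, 0.0181 without TKO_Ex replicate 3, -0.0644 to 0.0299 without single libraries), Fgf8 (0.19 with DKO_Ex alone, 0.0619 without TKO_Ex replicate 4), Cdh8 (-0.035 with TKO_Ex alone) and Cdh11 (0.0214 with DKO_Ex alone). Against WT they were Rax (-0.0523 with a pseudocount of 5, -0.17 without TKO_Ex replicate 4, -0.14 to 0.23 without single libraries), Fgf8 (-0.0802 by the records, -0.25 to 0.68 without single libraries) and Pax7 (-0.192 to 0.0147 without single libraries). Against DKO_CD grouping by the records, which swaps the groups, gave -3.10 for Gm20302, -0.91 for Nme1, -1.38 for Tmem141, -0.30 for Brms1 and -0.83 for Stk11ip. Apart from fewer libraries and the swapped groups, the cause was not tested. The alternative without TKO_Ex replicate 4 was chosen after seeing the data. Depth limits statements on genes near 1 FPKM.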
